A study of Homo sapiens with 8 samples.

Results

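The leukemia program of the posterior HOXA genes, their TALE homeobox partners MEIS1 and PBX3, the receptor tyrosine kinase FLT3, the transcriptional coregulator MN1 and the cell-cycle kinase CDK6 was followed across HL-60 and THP-1 cells. Members were all probe sets to which the platform annotation gave exactly 1 of 9 gene symbols, a rule that uses the annotation and no intensity. The 9 genes, and the related lists below, were themselves chosen with earlier results of these data known. Their shares of calls against all probe sets or all genes are therefore descriptive. The annotation named 5 probe sets of 5 genes (FLT3, PBX3, MEIS1, CDK6 and MN1) among the 22215 probe sets tested, which covered 11963 genes. It named none for HOXA5, HOXA7, HOXA9 and HOXA10, and these 4 genes were not analysed here. A probe set with a member among several symbols did not occur (0 found).

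HL-60 and THP-1 are established human acute myeloid leukemia lines, labelled promyelocytic and monocytic. THP-1 is known to carry a fusion of KMT2A to MLLT3. Each line was given 100 µM diclofenac, an anti-inflammatory inhibitor of the cyclooxygenases, or the solvent DMSO alone (0 µM diclofenac) for 48 h, in serum-supplemented RPMI medium shared by all groups. RNA was hybridised to 1 Affymetrix human array per sample. The 4 groups (HL-60 with DMSO, HL-60 with diclofenac, THP-1 with DMSO, THP-1 with diclofenac) had 2 arrays each, titled as biological replicates, with nothing further on separate cultures. The p-values below measure the spread between these arrays. Each leukemia type was represented by a single line, so the type and the line cannot be told apart.

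Posterior HOXA proteins bind DNA together with TALE partners. MEIS1 and PBX3 stabilise the HOXA complex on its sites, and FLT3 is among the genes known to be driven by HOXA9 with MEIS1. KMT2A fusion proteins keep the program on in many acute myeloid leukemias. CDK6, which pairs with the D-type cyclins, and MN1 are further genes on which such leukemias are known to depend.

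The proximal promoters of the 3 members that differed between the lines are shown because their proteins are transcription factors of the program or, for FLT3, a known target of it. The windows hold 250 bases before to 50 after the RefSeq transcription start in GRCh38.p14, on the strand of the gene. FLT3 lies at chr13:28100527-28100826 (minus strand), PBX3 at chr9:125747933-125748232 (plus strand) and MEIS1 at chr2:66434875-66435174 (plus strand). Capitals mark a match to the MEIS core motif TGACAG on either strand.
FLT3: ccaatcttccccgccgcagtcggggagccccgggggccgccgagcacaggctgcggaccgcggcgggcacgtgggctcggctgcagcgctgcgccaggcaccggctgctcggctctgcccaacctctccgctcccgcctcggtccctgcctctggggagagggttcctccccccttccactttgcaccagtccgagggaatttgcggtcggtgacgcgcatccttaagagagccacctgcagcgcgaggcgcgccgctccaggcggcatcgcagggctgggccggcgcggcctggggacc
PBX3: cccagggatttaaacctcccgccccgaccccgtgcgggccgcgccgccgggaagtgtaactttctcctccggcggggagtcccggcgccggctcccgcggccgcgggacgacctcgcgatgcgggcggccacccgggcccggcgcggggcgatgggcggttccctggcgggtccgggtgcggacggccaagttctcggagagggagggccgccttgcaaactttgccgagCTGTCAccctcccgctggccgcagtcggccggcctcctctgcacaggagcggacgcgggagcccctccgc
MEIS1: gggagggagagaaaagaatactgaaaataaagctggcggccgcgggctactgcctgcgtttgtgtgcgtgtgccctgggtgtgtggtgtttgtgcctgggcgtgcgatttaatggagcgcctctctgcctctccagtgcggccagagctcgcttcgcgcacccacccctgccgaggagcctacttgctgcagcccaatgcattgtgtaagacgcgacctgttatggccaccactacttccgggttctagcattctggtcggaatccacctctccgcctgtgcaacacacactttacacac
Of the 5 measured members, 4 had an entry in the RefSeq promoter table. The FLT3 and PBX3 windows were 74.0% and 76.0% G or C, with 34 and 43 CpG dinucleotides, and the MEIS1 window was 58.3% with 18. Over 35116 promoters of the same length the median was 58.7% with 14 CpG. PBX3 held 1 MEIS motif, read as CTGTCA at bases 231 to 236 of the window. That motif occurs in 15.8% of all promoters. The composite PBX-HOX motif TGATTNAT (2.82% of all promoters) and the AP-1 motif TGANTCA (7.71%) were searched on both strands and had no match in the windows of FLT3, PBX3, MEIS1 or CDK6, so no matches overlapped. These matches are letters in the reference, and binding was not measured.

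The array THP-1 DMSO replicate 2 stood apart. Bacterial control probe sets, which have no target in human RNA, had a median intensity of 78 there, compared with 5.6 to 24.6 elsewhere. Only 50.32% of its probe sets exceeded the background of the array, taken as the 95th percentile of those controls, against 66.36% to 72.14% elsewhere. That background was 238.63 on this array and 33.23 to 60.2 on the others. Its correlation with replicate 1 over probe sets was 0.898, and the other replicate pairs reached 0.977 to 0.984. Member results that use THP-1 DMSO are given with and without it, as are the counts of the related lists. Without it THP-1 DMSO is a single array, and the spread in that fit comes from the other groups. Calls and counts from that fit are therefore descriptive. All 9 promyelocyte markers were measured, with summed intensities of 55656 to 65886 in HL-60 and 64431 to 90397 in THP-1, and 10 of 11 monocyte markers summed to 20128 to 28590 and 33156 to 55121. Of the promyelocyte markers 8 of 9 were above background on both arrays in HL-60 with DMSO and 8 of 9 in THP-1 with DMSO. With diclofenac 9 of 9 were, in both lines. ELANE, the neutrophil elastase, read 12445.6 and 12838.1 in HL-60 with DMSO and 17063.7 and 12169.4 in THP-1, whereas MPO, the myeloperoxidase of the same granules, was not above background on either HL-60 DMSO array (41.7 and 40.6). Of the monocyte markers 7 of 10 were above background on both HL-60 DMSO arrays and 6 of 10 on both THP-1 DMSO arrays. The latter count includes the array that stood apart, with its higher background. With diclofenac 8 of 10 were above background on both arrays in HL-60 and 9 of 10 in THP-1. The monocyte markers did not all point one way. FCN1, a ficolin of monocytes, read 459.2 and 448 in HL-60 with DMSO and 10.1 and 269.7 in THP-1. The 10.1 was under the background of its array, and the 269.7 came from the array that stood apart. CD14, the defining monocyte receptor, was at background on all 4 HL-60 arrays. In THP-1 it read 55.6 and 45.2 with DMSO, the second under the background of its array, and 332.9 and 310.5 with diclofenac. The monocyte sum was higher on every THP-1 array than on any HL-60 array, although single monocyte markers went both ways. The promyelocyte sums overlapped between the lines. In bulk RNA, a smaller number of cells of a type and less RNA per cell cannot be told apart.

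FLT3, the receptor of FLT3 ligand on early blood progenitors, was high in THP-1 and near background in HL-60. Probe set 206674_at had deposited intensities of 65.2 and 28 in HL-60 with DMSO and 61.2 and 30 with diclofenac. In THP-1 it read 808.2 and 585.6 with DMSO and 646 and 673.3 with diclofenac. All 4 THP-1 arrays lay above all 4 HL-60 arrays, and in each HL-60 group 1 of 2 arrays was above background. On the scale used for testing, log2 of the intensity plus 50 after quantile normalization, the group levels were 6.55 ± 0.23 and 6.73 ± 0.31 in HL-60 and 9.47 ± 0.40 and 9.47 ± 0.05 in THP-1 (SD, n = 2, DMSO first). The line difference was 2.93 ± 0.33 with DMSO (SE, 95% interval 2.18 to 3.67), a 7.6-fold higher level in THP-1 with an adjusted p of 0.00053 by limma with Benjamini-Hochberg adjustment over all probe sets. With diclofenac it was 2.74 ± 0.33, or 6.70-fold (limma adjusted p = 0.00081). Leaving out THP-1 DMSO replicate 2 gave 3.30 in the DMSO comparison. By size, the DMSO difference ranked 164 among 22215 probe sets. The offset of 50 understates the fold of a gene this dim in HL-60.

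PBX3, the TALE cofactor that dimerises with HOX proteins and MEIS1, was also higher in THP-1. Probe set 204082_at read 490.2 and 517.4 in HL-60 with DMSO and 431.2 and 448 with diclofenac. In THP-1 it read 2416.2 and 1660.8 with DMSO and 1919.2 and 1982.8 with diclofenac. Every array was above background, and the lines did not overlap. The normalized levels were 9.08 ± 0.09 and 8.96 ± 0.07 in HL-60 and 11.07 ± 0.17 and 10.92 ± 0.04 in THP-1 (SD, n = 2). The difference of 1.98 ± 0.14 with DMSO (SE, 95% interval 1.67 to 2.29) was 3.95-fold, with a limma adjusted p of 3.8e-05. The DMSO difference was 2.15 without THP-1 DMSO replicate 2. With diclofenac it was 1.96 ± 0.14, or 3.88-fold (limma adjusted p = 4.8e-05).

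MEIS1, the TALE homeobox partner of HOXA9, ran the other way and was lower in THP-1. Probe set 204069_at read 669.8 and 635.3 in HL-60 with DMSO and 684.3 and 657.4 with diclofenac. In THP-1 it read 383.8 and 327.5 with DMSO and 237.5 and 252.1 with diclofenac. All arrays were above background, and each THP-1 array lay below each HL-60 array. The normalized levels were 9.44 ± 0.03 and 9.51 ± 0.00 in HL-60, and 8.46 ± 0.56 and 8.28 ± 0.08 in THP-1 (SD, n = 2). The difference was -0.99 ± 0.26 with DMSO (SE, 95% interval -1.58 to -0.39), 1.98-fold lower in THP-1 at a limma adjusted p of 0.037. Without THP-1 DMSO replicate 2 it was -0.61. With diclofenac it was -1.23 ± 0.26, or 2.35-fold lower (limma adjusted p = 0.016). This call was near the threshold. It held in 6 of 17 alternatives with DMSO and 12 of 17 with diclofenac. With DMSO it was lost under median centring, without the intensity trend, with array weights, with the replicate block and with only the 4 arrays compared. It was also lost with DMSO when any HL-60 array or either THP-1 diclofenac array was left out, and with diclofenac when any of the 4 diclofenac arrays was left out, at limma adjusted p up to 0.19 and 0.12.

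CDK6, the kinase that with D-type cyclins opens the G1 phase, was at the edge of detection by its only probe set. Low RNA and a weak probe set cannot be told apart here, nor for MN1 below. Probe set 207143_at read 45.1 and 79.9 in HL-60 with DMSO, 23.4 and 50.3 with diclofenac, 65 and 192.6 in THP-1 with DMSO, and 21.5 and 59.4 with diclofenac. Exactly 1 of 2 arrays in each group was above background, and the lines overlapped in both treatments. The line difference was 0.31 ± 0.39 with DMSO (SE, 95% interval -0.58 to 1.20, limma adjusted p = 0.65) and 0.22 without THP-1 DMSO replicate 2. With diclofenac it was -0.01 ± 0.39 (95% interval -0.90 to 0.88, limma adjusted p = 1).

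MN1, a coregulator that cooperates with HOXA9 and MEIS1 in experimental leukemia, was above background on a single array. Probe set 205330_at read 11.2 and 35.9 in HL-60 with DMSO, 39.7 and 4.6 with diclofenac, 15.1 and 457 in THP-1 with DMSO, and 10.6 and 7.1 with diclofenac. The value of 457 came from THP-1 DMSO replicate 2, the array that stood apart. On the other 7 arrays MN1 was at background, so no fold is given. The line comparison with DMSO did not pass (limma adjusted p = 0.30).

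**Figure D1:**
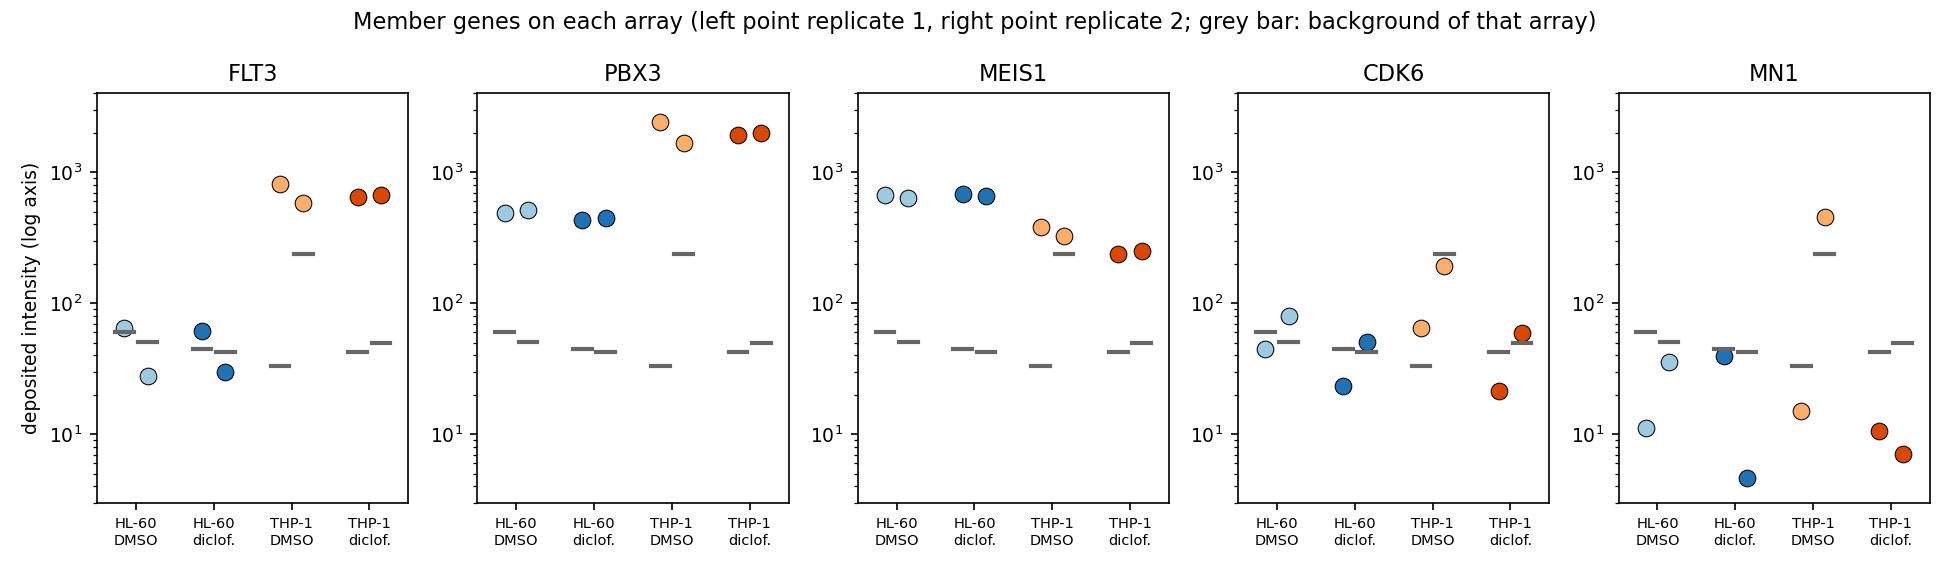
Deposited intensity (log axis) of FLT3, PBX3, MEIS1, CDK6 and MN1 on each of the 8 arrays, with 2 points per group, and grey bars for the background of each array. FLT3 and PBX3 lay higher on all THP-1 arrays and MEIS1 lower, CDK6 crossed the background within every group, and MN1 exceeded it only at 457 on THP-1 DMSO replicate 2.

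In counts, 3 of the 5 member probe sets passed the limma test between the lines with DMSO (2 higher and 1 lower in THP-1), where 15.3% of all probe sets passed in either direction. With diclofenac the numbers were the same, against 13% of all probe sets. The arrays of the lines did not overlap for 3 of 5 members with DMSO and 3 of 5 with diclofenac, against 49.5% and 58.9% of all probe sets. These were FLT3, PBX3 and MEIS1 each time. The DMSO and diclofenac comparisons share no array, but both draw on 1 estimate of the spread. For FLT3 and PBX3 the order of the 4 groups fell into a THP-1 pair above an HL-60 pair, and within each pair the neighbours did not differ beyond their spread by the test below. For MEIS1 the HL-60 pair was above the THP-1 pair.

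**Figure D2:**
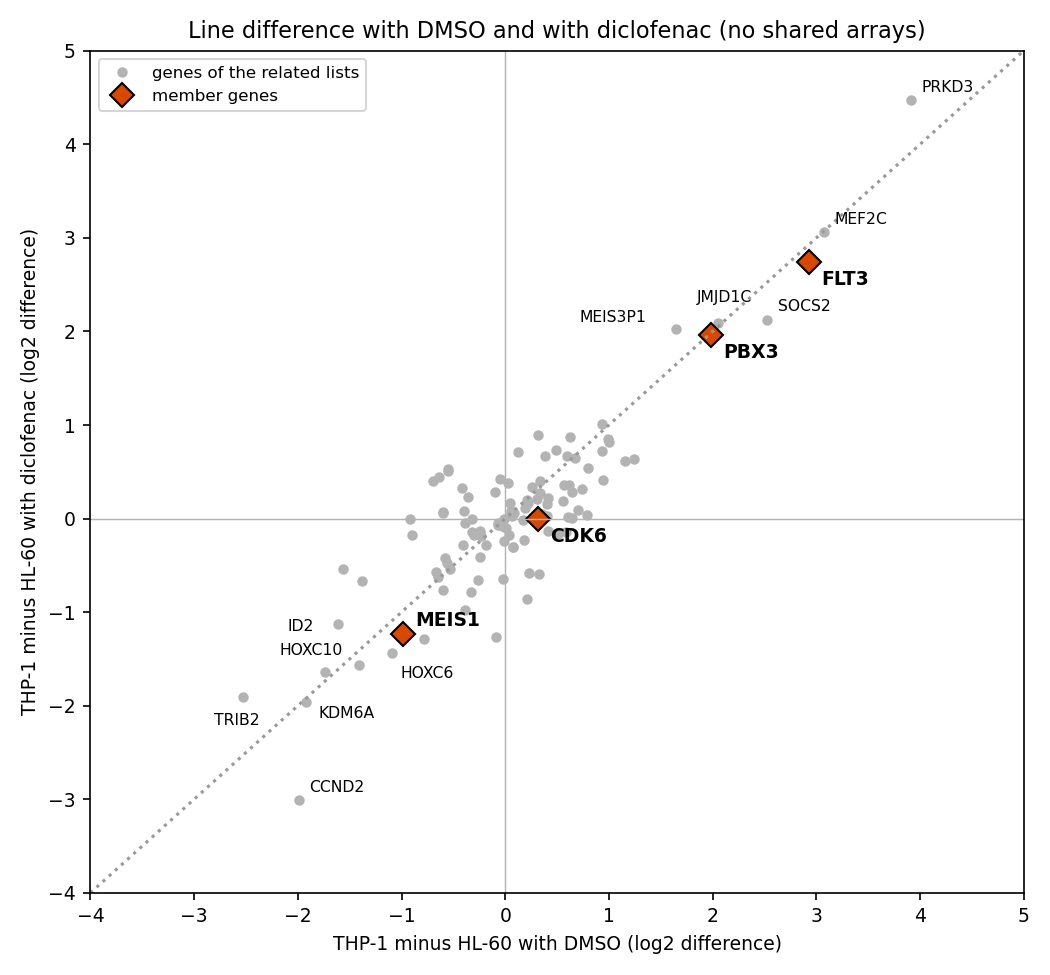
Log2 difference of THP-1 minus HL-60 with DMSO (x axis) and with diclofenac (y axis) for 4 members (orange diamonds) and the genes of 8 related lists (grey), with the line of equal values dotted. FLT3 lies at 2.93 and 2.74 and PBX3 at 1.98 and 1.96, MEIS1 at -0.99 and -1.23, and MN1 is left out because it was at background in both treated groups.

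Diclofenac gave no called member in either line. In HL-60, 0 of 5 members passed the limma test at an adjusted p under 0.05 and 0 at an unadjusted p under 0.05, where 0.0045% of all probe sets passed after adjustment. MEIS1 was higher on both diclofenac arrays after normalization and PBX3 lower on both, so 2 of 5 members did not overlap, against 39.3% of all probe sets. The log2 changes were 0.07 ± 0.26 for MEIS1 (SE, 95% interval -0.53 to 0.67), -0.12 ± 0.14 for PBX3 (-0.43 to 0.19), 0.18 ± 0.33 for FLT3 (-0.57 to 0.93) and -0.23 ± 0.39 for CDK6 (-1.12 to 0.66). Each had a limma adjusted p of 1. MN1 was at background in both HL-60 groups. As ratios the intervals run from 0.674 to 1.90 for FLT3 and from 0.460 to 1.58 for CDK6. Changes within them were not detectable here, and larger ones may also not pass after adjustment over all probe sets.

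In THP-1, 0 of 5 members passed after adjustment and 0 at an unadjusted p under 0.05, where 0.135% of all probe sets passed after adjustment. CDK6 was lower on both diclofenac arrays, as was MN1 among values mostly at background, so 2 of 5 did not overlap, against 39.6% of all probe sets. FLT3 had a log2 change of -0.00 ± 0.33 (SE, 95% interval -0.75 to 0.75) and PBX3 of -0.14 ± 0.14 (-0.46 to 0.17). Without THP-1 DMSO replicate 2 these were -0.29 and -0.27. CDK6 had -0.55 ± 0.39 (-1.44 to 0.34), and -0.46 without that array. MEIS1 had -0.18 ± 0.26 (-0.78 to 0.42, limma adjusted p = 0.78). Its deposited intensities were lower on both diclofenac arrays, but after quantile normalization they overlapped, at 8.85 and 8.06 with DMSO and 8.22 and 8.34 with diclofenac. The MEIS1 change was -0.46 on the deposited scale (limma adjusted p = 0.54). It was -0.60 without THP-1 DMSO replicate 2 and 0.22 without replicate 1, so its direction rested on which DMSO array was used. MN1 was above background on no diclofenac array and did not pass (limma adjusted p = 0.48). Without replicate 1, the array that stood apart alone stood for THP-1 DMSO, and the MN1 change was -2.74. Without replicate 2 MN1 was at background in both groups.

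The change in THP-1 minus the change in HL-60 was called for 0 of 5 members, with 0.0045% of all probe sets called. The limma interaction was -0.25 ± 0.37 for MEIS1 (SE, 95% interval -1.10 to 0.60, adjusted p = 0.87), -0.02 ± 0.19 for PBX3 (-0.46 to 0.42, 0.98), -0.18 ± 0.46 for FLT3 (-1.24 to 0.88, 0.92) and -0.32 ± 0.55 for CDK6 (-1.58 to 0.94, 0.89). Without THP-1 DMSO replicate 2 it was -0.67 for MEIS1, -0.14 for PBX3, -0.47 for FLT3 and -0.23 for CDK6. A different response of the lines was not detectable for these members with 2 arrays per group.

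**Figure D3:**
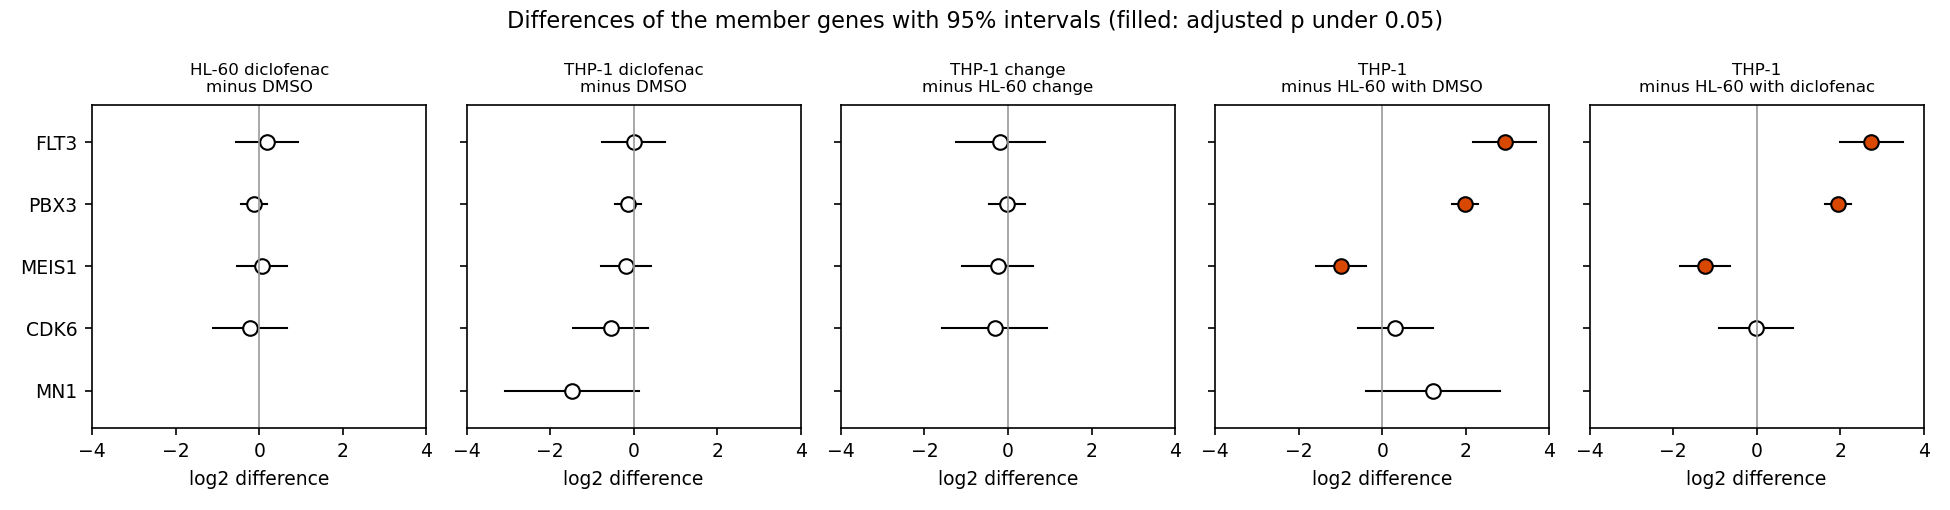
Log2 differences of the members in the 5 comparisons, with 95% intervals as bars and filled points where the limma adjusted p was under 0.05. Filled points appear only in the line comparisons, for FLT3, PBX3 and MEIS1, and MN1 is left out of the 3 panels where groups at background set its value, and its remaining 2 points rest on THP-1 DMSO replicate 2.

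The wider program was read from 8 lists of 126 genes. Of these 107 were measured, meaning that the annotation gave at least 1 probe set their symbol alone. A gene is represented by its probe set of highest mean level. Between the lines with DMSO, 16 were higher and 10 lower in THP-1, 24.3% of those measured, against 18.7% of all genes. With diclofenac 16 were higher and 12 lower, 26.2% against 16.1%. Without THP-1 DMSO replicate 2 the DMSO counts were 18 and 12, and without replicate 1 they were 24 and 20. Without HL-60 DMSO replicate 1 they were 7 and 3, and without replicate 2 of that group 10 and 2. The other left-out arrays gave 9 to 11 higher and 5 lower. The diclofenac counts were 7 and 3 or 6 and 4 without either HL-60 diclofenac array (replicates 1 and 2), and 6 and 5 or 6 and 4 without either THP-1 diclofenac array. They were 17 and 17 without THP-1 DMSO replicate 2. In each of these settings the number called over all probe sets moved in the same direction as the list counts, so the swings are not particular to the lists. For the genes named below, the number of the 17 alternatives in which a call held is given where it was under 12. The lists hold genes in common (MEIS2, PIM1 and PTPN11 count under 2 lists).

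Among HOX genes outside the HOXA cluster, 2 of 22 passed the test in each line comparison. Of all genes 18.7% passed with DMSO and 16.1% with diclofenac. Of 27 HOXB, HOXC and HOXD genes 22 were measured and 15 were above background on both arrays of some group. With DMSO 0 were higher and 2 lower in THP-1, and with diclofenac again 0 and 2 (1 and 2, and 0 and 2, when THP-1 DMSO replicate 2 was left out). The list medians were 0.02 and 0.02, against 0.03 and -0.00 over all genes. HOXC6 read 538.7 and 597.2 in HL-60 with DMSO and 221.6 and 328.1 in THP-1, differing by -1.09 ± 0.20 (SE, limma adjusted p = 0.0072), and by -1.43 ± 0.20 with diclofenac. HOXC10 read 486.6 and 507.1 against 44.2 and 307.5, with differences of -1.74 ± 0.39 with DMSO (-2.41 without THP-1 DMSO replicate 2) and -1.64 ± 0.39 with diclofenac (called in 11 of 17). Among 7 other HOXA genes the annotation gave a probe set of its own only to HOXA2, which was above background on 0 arrays. Its differences of 0.04 and -0.17 were not called.

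Of 8 TALE partners, the family of MEIS and PBX, 7 were measured. With DMSO 2 were higher and 0 lower in THP-1, and with diclofenac 1 and 1 (2 and 1, and 1 and 1, when THP-1 DMSO replicate 2 was left out). The medians were 0.08 and 0.09, against 0.03 and -0.00 over all genes, of which 18.7% and 16.1% passed. MEIS3P1, a MEIS3 pseudogene whose probe set may share sequence with its parent, was 1.64 ± 0.31 higher with DMSO (SE, limma adjusted p = 0.0076) and 2.03 ± 0.31 with diclofenac. MEIS2 was 0.94 ± 0.21 higher with DMSO and had 0.41 with diclofenac, which did not pass. PBX2 had -0.60 with DMSO, which did not pass, and was lower by -0.76 with diclofenac (called in 9 of 17), while its 3 other probe sets ranged from -0.08 to 0.67 and were not called. Without THP-1 DMSO replicate 2, the PBX2 difference with DMSO was -0.87.

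Of 20 genes of the KMT2A fusion complex and of chromatin regulators of the HOXA locus, 18 were measured. With DMSO 4 were higher and 2 lower in THP-1, and with diclofenac 4 and 1 (4 and 1, and 5 and 2, when THP-1 DMSO replicate 2 was left out). The medians were -0.01 and 0.12, against 0.03 and -0.00 over all genes, of which 18.7% and 16.1% passed. SUZ12, a core subunit of the Polycomb repressive complex that methylates histone H3, was 1.00 ± 0.10 higher with DMSO (SE, limma adjusted p = 0.00026) and 0.82 ± 0.10 with diclofenac. PSIP1, which tethers KMT2A and menin to chromatin, was 0.93 ± 0.17 and 0.72 ± 0.17 higher, the latter called in 11 of 17. MEN1, which encodes menin, was 0.80 ± 0.20 higher with DMSO, a call held in 7 of 17 alternatives and lost under centring, array weights and the replicate block, and had 0.54 with diclofenac, which did not pass. KDM6A, a histone H3 demethylase, read 333.6 and 317.7 in HL-60 with DMSO and was not above background on any THP-1 array. It was at least 2.90-fold lower in THP-1 with DMSO and at least 3.31-fold lower with diclofenac (limma adjusted p = 0.028 and 0.029), calls held in 7 and 10 of 17 alternatives and lost with most arrays left out. Of its 2 other probe sets 1 was called the same way in both, and the second had 0.27 with DMSO and -0.72 with diclofenac, not called.

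Of 20 known targets of HOXA9 and MEIS1, 18 were measured, and calls went both ways. With DMSO 3 were higher and 4 lower in THP-1, and with diclofenac 2 and 3 (3 and 5, and 2 and 4, when THP-1 DMSO replicate 2 was left out). The medians were -0.07 and -0.06, against 0.03 and -0.00 over all genes, of which 18.7% and 16.1% passed. MEF2C, a transcription factor of myeloid progenitors, read 145.4 and 88.4 in HL-60 with DMSO and 1412.9 and 1159.1 in THP-1. It was 3.07 ± 0.20 higher with DMSO (SE, limma adjusted p = 3e-05) and 3.06 ± 0.20 with diclofenac, with 1 of its 2 other probe sets called the same way. JMJD1C, a JmjC-domain coregulator, read 218.8 and 264.7 against 1619.8 and 809.6 with DMSO. Its differences were 2.05 ± 0.29 (2.60 without THP-1 DMSO replicate 2) and 2.10 ± 0.29 with diclofenac. ID2, an inhibitor of basic helix-loop-helix factors, read 2541.8 and 2653.6 in HL-60 with DMSO and 659.9 and 937.6 in THP-1. It was lower by -1.62 ± 0.16 (limma adjusted p = 0.00024), and by -1.13 ± 0.16 with diclofenac, and its other probe set was called the same way. TRIB2, a pseudokinase that degrades C/EBPα, read 358.5 and 397.8 in HL-60 with DMSO and was not above background on either THP-1 DMSO array. It was at least 3.27-fold lower there (limma adjusted p = 0.0025) and lower by -1.91 ± 0.38 with diclofenac. Its other probe set was called the same way with DMSO (-1.66) and had -1.04 with diclofenac, not called.

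Of 19 genes of FLT3 signalling, 18 were measured. With DMSO 4 were higher and 2 lower in THP-1, and with diclofenac 3 and 3 (4 and 3, and 3 and 5, when THP-1 DMSO replicate 2 was left out). The medians were 0.19 and -0.03, against 0.03 and -0.00 over all genes, of which 18.7% and 16.1% passed. SOCS2, the feedback inhibitor induced by STAT5, read 239.9 and 229.8 in HL-60 with DMSO and 1831.7 and 1255.8 in THP-1. It was 2.53 ± 0.25 higher with DMSO (SE, limma adjusted p = 0.00029) and 2.12 ± 0.25 with diclofenac, and its other probe set was called the same way. PIM1, a kinase also induced by STAT5 and listed among the HOXA9 targets too, was lower by -1.41 ± 0.29 and -1.57 ± 0.29. SHC1, an adaptor between receptor kinases and RAS, was 0.49 ± 0.14 and 0.73 ± 0.14 higher. The DMSO call held in 4 of 17 alternatives, and its other probe set had 0.58 and 0.41 and was not called. PIK3CD, a catalytic subunit of phosphoinositide 3-kinase, had -0.33 with DMSO, which did not pass, and was lower by -0.78 ± 0.13 with diclofenac, and its other probe set had -0.60 and -0.14 and was not called.

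Of 17 partners and inhibitors of CDK6, 16 were measured. With DMSO 2 were higher and 1 lower in THP-1, and with diclofenac 2 and 2 (2 and 1, and 2 and 3, when THP-1 DMSO replicate 2 was left out). The medians were 0.05 and -0.07, against 0.03 and -0.00 over all genes, of which 18.7% and 16.1% passed. CCND2, a D-type cyclin, read 573 and 553.3 in HL-60 with DMSO and 23.2 and 346.4 in THP-1, the second on the array that stood apart. It was lower by -1.99 ± 0.53 with DMSO (SE, limma adjusted p = 0.037), by -2.98 without that array, and by -3.01 ± 0.53 with diclofenac. The DMSO call held in 6 of 17 alternatives, being lost on the deposited scale, without the offset, without the trend, with array weights, with only the 4 arrays and without any HL-60 array or either THP-1 diclofenac array. Its 2 other probe sets were not called, at -0.68 to 0.28 with DMSO and -0.95 to -0.41 with diclofenac. CDKN1A, which encodes the p21 inhibitor, was 0.93 ± 0.24 higher with DMSO and 1.01 ± 0.24 with diclofenac. The DMSO call held in 8 of 17 alternatives, and the difference was 0.85 without THP-1 DMSO replicate 2. E2F3, a transcription factor held by the retinoblastoma protein, was 0.59 ± 0.14 and 0.67 ± 0.14 higher, calls held in 8 and 11 of 17 alternatives, but its other probe set had 0.02 and -0.00. RBL2, a retinoblastoma relative, had -0.27 with DMSO, which did not pass, and was lower by -0.66 ± 0.13 with diclofenac (called in 11 of 17). Its other probe set had -0.32 and -0.82 and was not called.

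Of 11 MN1 partners and genes of MN1 leukemia, 10 were measured. With DMSO 3 were higher and 0 lower in THP-1, and with diclofenac 4 and 1 (4 and 0, and 4 and 1, when THP-1 DMSO replicate 2 was left out). The medians were 0.59 and 0.30, against 0.03 and -0.00 over all genes, of which 18.7% and 16.1% passed. PRKD3, a protein kinase D, was not above background on any HL-60 array and read 1252.1 and 949.8 in THP-1 with DMSO. It was at least 11.1-fold higher with DMSO and at least 12.5-fold with diclofenac (limma adjusted p = 3.4e-05 and 2e-05), while its other probe set had 0.80 and 1.39 and was not called. CREBBP, a histone acetyltransferase, was 0.99 ± 0.17 and 0.85 ± 0.17 higher, the latter called in 11 of 17, but its other probe set had 0.17 and 0.39 and was not called. RXRA, a nuclear receptor partner, had -0.09 with DMSO, which did not pass, and was lower by -1.26 ± 0.19 with diclofenac, and its other probe set had -0.96 and -0.61 and was not called. CEBPA, the C/EBPα factor of granulocyte differentiation, had 0.31 with DMSO, which did not pass, and was 0.89 ± 0.17 higher with diclofenac. Without THP-1 DMSO replicate 2, the CEBPA difference with DMSO was 0.61.

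None of the 107 measured genes of these lists passed the limma test for diclofenac in HL-60 or in THP-1. An unadjusted p under 0.05 was found for 10 and 12 of them. Over all 22215 probe sets it was found for 1000 and 2359, which counts probe sets rather than genes. For THP-1 the count depended on the DMSO arrays. Without replicate 2 a single DMSO array is left in THP-1. ID2 was then 0.76 higher with diclofenac, against 0.48 on all arrays (limma adjusted p = 0.37). ID2 read 659.9 and 937.6 with DMSO and 1154.8 and 1177.1 with diclofenac, so the groups did not overlap, as for 39.6% of all probe sets. Its other probe set had -0.12 and was not called. Without replicate 1, 10 of the genes were called higher and 11 lower, in a setting where 6892 of all probe sets were called. ID2 was not among these 21. In THP-1 the summed deposited intensities of the monocyte markers were 33156 to 45642 with DMSO and 52321 to 55121 with diclofenac. The DMSO range includes the array that stood apart. Single markers differed, as CD14 was higher with diclofenac while CSF1R read 252.2 and 426.3 with DMSO and 255.7 and 221.6 with diclofenac. The 426.3 came from the array that stood apart, and the 252.2 of the other DMSO array lay between the diclofenac values. The part of these markers in the ID2 value was not tested.

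The genes with the pattern most like each member were found by the root mean square difference of centred log2 profiles over the 8 arrays, among 9400 genes above background on both arrays of some group. For FLT3 they were ZNF304 (0.19), OLIG2 (0.22) and RHOBTB3 (0.23), where the profile of FLT3 itself has a root mean square of 1.43. For PBX3 they were PSMA5 (0.12), SLPI (0.13) and SCAF11 (0.13), against 0.99 for PBX3. For MEIS1 they were APOBEC3C (0.07), PRPS1 (0.09) and TIMM10 (0.12), against 0.59 for MEIS1. OLIG2 was 3.17 and 2.87 higher in THP-1 with DMSO and with diclofenac, SLPI 2.03 and 2.04, and APOBEC3C lower by -0.94 and -1.19. The 8 arrays hold 2 lines, and the likeness is a description over these arrays. CDK6 and MN1 were above background on both arrays of no group and were given no such genes.

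**Figure D4:**
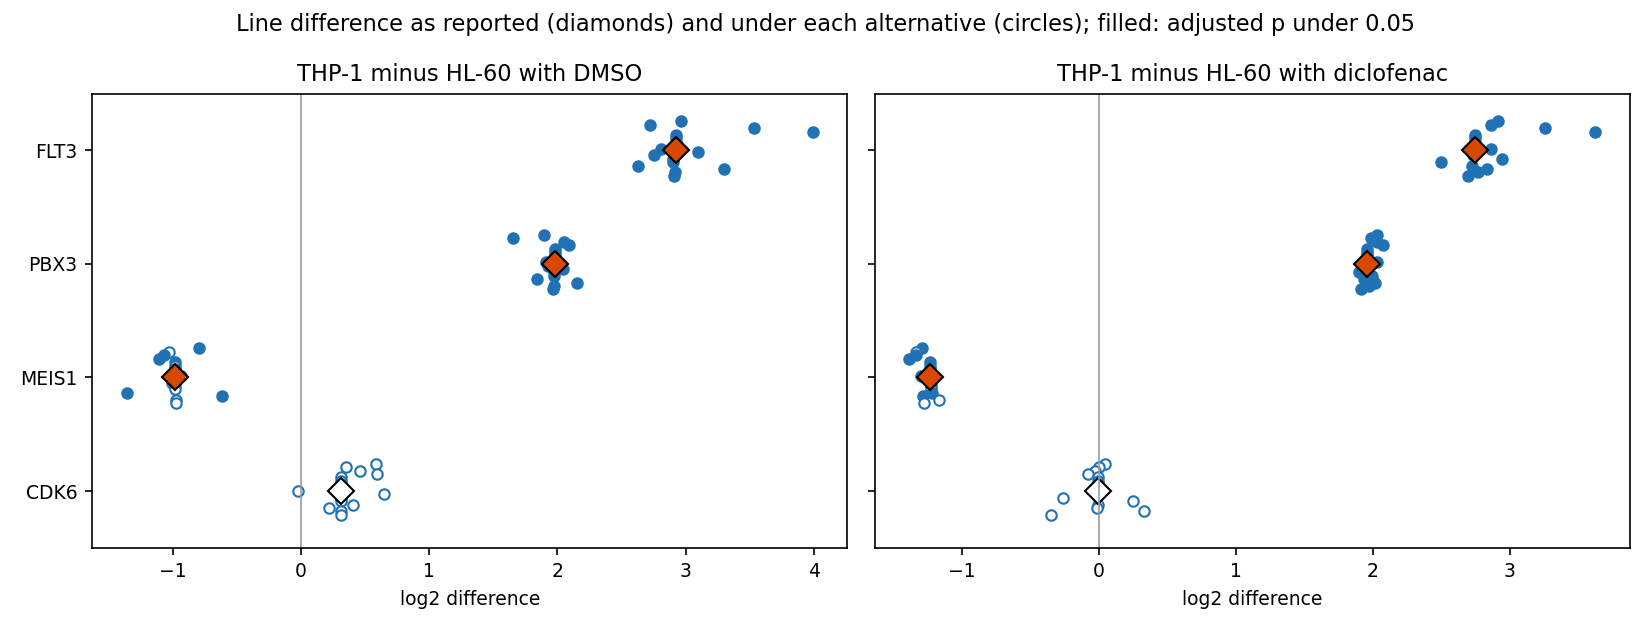
Line difference (log2) of FLT3, PBX3, MEIS1 and CDK6 as reported (diamonds) and under each alternative processing or left-out array (circles), filled where the limma adjusted p was under 0.05, with DMSO at left and diclofenac at right. FLT3 and PBX3 were called in 17 of 17 alternatives in both panels, MEIS1 in 6 of 17 at left and 12 of 17 at right, and CDK6 in none.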

How the data were processed

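The deposited intensities, linear and one per probe set and array, were the starting point. Per the labels, biotin-labelled cRNA was hybridised to Affymetrix human arrays, and the software behind the deposited intensities is not given in the sources used here. Tests covered 22215 of the 22277 probe sets, the remaining 62 being controls. The annotation gave 1 symbol for 19064, several for 1043 and did not list 2108, which are unnamed here.

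Log2 of the intensity plus 50 was quantile-normalized, and limma 3.58.1 (R 4.3.3) fitted the means of the 4 groups to the 8 arrays together, with an intensity trend, 4 residual and 4.41 prior degrees of freedom. P-values are two-sided, adjusted by Benjamini-Hochberg over all probe sets, with a threshold of 0.05. Where a named related gene was at background on both arrays of a group compared, its fold was given as a minimum, from a bound on that level. The limma p-values beside such a fold belong to the normalized values, without the bound. Same-numbered arrays did not deviate together (r = -0.00 for HL-60, -0.01 for THP-1), and the labels name no pairing, so the reported fit has no replicate block. The number of arrays limits the precision. Levels were not compared between genes.

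Alternatives were no offset or one of 16, the deposited scale, median centring, leaving out the dimmest 40%, no trend, array weights, a replicate block, only the 4 arrays compared, and each array left out. Every member probe set was named, and up to 4 called genes of each related list by smallest p. Members and lists were chosen with earlier results of these data known. The method was also run on simulated arrays in which a probe set had the same spread on every array. That setting has no array that stands apart, and no result here rests on it. Figures used matplotlib 3.10.9 in Python 3.11.15.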

Additional observations from a re-analysis of the deposited data

How the results depend on the processing

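FLT3 and PBX3 were called higher in THP-1 in all 17 alternatives of both line comparisons, at 2.63 to 3.99 and 1.65 to 2.15 with DMSO and 2.50 to 3.63 and 1.90 to 2.07 with diclofenac. MEIS1 kept its sign in all 17, at -1.36 to -0.61 with DMSO and -1.39 to -1.17 with diclofenac. The count of members lower in THP-1 with DMSO was 0 under median centring, 0 without the trend, 0 with array weights, 0 with the replicate block and 0 with only the 4 arrays compared. With diclofenac it was 0 under median centring. The replicate block changed no other call of a member. Leaving out 1 array gave 0 to 1 lower with DMSO, 0 to 1 with diclofenac, 2 to 3 higher with DMSO, and 0 to 1 lower for THP-1 diclofenac and for the difference of the responses, where the 1 was MN1 without THP-1 DMSO replicate 1.

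Uncalled drug changes reversed sign. On the deposited scale FLT3 in HL-60 was -0.0072, the PBX3 difference of responses 0.14 and the CDK6 line difference with diclofenac 0.044. Under centring the FLT3 and PBX3 differences of responses were 0.14 and 0.33 and their THP-1 changes 0.30 and 0.32. The FLT3 THP-1 change was 0.00019 with no offset and 0.0031 with only the 4 arrays. Over left-out arrays, CDK6 and FLT3 ran from -0.56 to 0.10 and -0.044 to 0.40 in HL-60. FLT3 and MEIS1 ran from -0.29 to 0.28 and -0.60 to 0.22 in THP-1. The differences of responses ran from -0.66 to 0.017 for CDK6, -0.47 to 0.10 for FLT3, -0.67 to 0.15 for MEIS1 and -0.14 to 0.093 for PBX3. Line differences ran from -0.020 to 0.65 for CDK6 and -0.069 to 2.49 for MN1 with DMSO, and from -0.35 to 0.33 for CDK6 with diclofenac. The cause was not tested. CDK6 and MN1 fell under the filter on dim probe sets and have no value there, and signal over background limits both.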
